A study of Mus musculus with 6 samples.

Results

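The G1 cyclins, their kinases and the inhibitors of these kinases were followed through adipogenesis of 3T3-L1, a line of mouse fibroblasts that turns into lipid-laden adipocytes under hormonal induction. The group was chosen by gene symbol and held 10 of the 43760 rows of the count table: 3 D cyclins (Ccnd1, Ccnd2, Ccnd3), 2 E cyclins (Ccne1, Ccne2), 2 cyclin-dependent kinases (Cdk4, Cdk6) and 3 inhibitors (Cdkn1a, Cdkn1b, Cdkn2c). All 10 passed the filter on low counts. Wild-type 3T3-L1 cells were taken at day 7 of adipogenic differentiation with IBMX, insulin, dexamethasone and rosiglitazone (3 libraries) or at day 0, before differentiation (3 libraries). The headers of the day 7 columns all carry replicate number 1, so these libraries are named by the order of their columns: the first day 7 column, the second day 7 column and the third day 7 column. All cells came from a single cell line, and the labels do not say which libraries were grown as separate cultures. The p-values therefore rest on the spread among these 6 samples alone, and that spread may be technical. The effects of differentiating, of the agents themselves and of a week more in the dish cannot be told apart.

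In G1, the growth phase before DNA synthesis, D cyclins bind CDK4 or CDK6 and start the phosphorylation of the retinoblastoma protein, which releases E2F transcription factors. E cyclins then bind CDK2 and complete this step at the entry into S phase. Inhibitors of the INK4 family, such as p18 encoded by Cdkn2c, bind CDK4 and CDK6 alone, whereas the CIP/KIP inhibitors p21 (Cdkn1a) and p27 (Cdkn1b) bind cyclin-CDK complexes. In 3T3-L1 cultures, confluent cells are known to divide a few more times after induction and then leave the cell cycle as they become adipocytes.

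Total counts ranged from 7655821 to 16987068 per library. Every pair of libraries of a day differed by more than counting noise (chi-square per gene of at least 6.38). This value includes the 10 most abundant rows, outside which 5158819 of 12642325 counts lay in the second day 7 column. Each library counted as 1 replicate, although such a difference cannot show that libraries came from separate cultures. On the second axis of a multidimensional scaling plot, with 10.7% of the variance, the third day 7 column lay apart at 1.81, against -0.62 for the first and -0.99 for the second. All 8 adipocyte markers rose, with summed levels of 3900 to 6760 CPM at day 7 and 28.8 to 36.1 CPM at day 0. All 10 fibroblast or preadipocyte markers fell, with sums of 3520 to 5500 CPM at day 7 and 13100 to 14800 CPM at day 0. The 4 macrophage markers summed to 0.951 to 1.93 CPM at day 7 and 0.870 to 1.93 CPM at day 0, the 4 endothelial ones to 0.623 to 1.42 CPM at day 7 and 0.263 to 0.683 CPM at day 0, and none passed the filter. Among them, Ptprc was at 0 in all day 7 libraries, while Cd68 had 0.815 to 1.7 CPM at day 7 and 0.0621 to 0.526 CPM at day 0, and Pecam1 had 0.623 to 1.32 CPM at day 7 and 0.167 to 0.559 CPM at day 0. With no filter, 1 of the 4 macrophage markers rose and 1 fell, and no endothelial marker was called in the same edgeR test. Levels below are TMM-scaled CPM, the counts of a gene relative to the library's effective total. In such bulk samples, fewer cells of a type and less RNA per cell cannot be told apart.

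The G1 genes did not move as a block. Ccnd1, Ccnd3, Cdk4 and Cdkn1b fell, Cdkn2c and Ccne2 rose, and Ccnd2, Ccne1, Cdk6 and Cdkn1a did not pass the test (edgeR, quasi-likelihood F test; adjusted p under 0.05 by Benjamini-Hochberg over 12354 genes). The 6 of 10 called stand against 60.0% of all tested genes, so changing at all was no more common here than elsewhere. By direction, 2 of 10 rose against 30.8% of all tested genes, and 4 of 10 fell against 29.2%. The groups did not overlap for 7 of 10, against 68.3% of all tested genes. The median log2 fold change of the 10 genes was -0.32, and that of all tested genes 0.02. The spread within the group was wide: only 181 of the 12354 genes had a lower log2 fold change than Ccnd1, and 577 had a higher one than Cdkn2c.

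**Figure D1:**
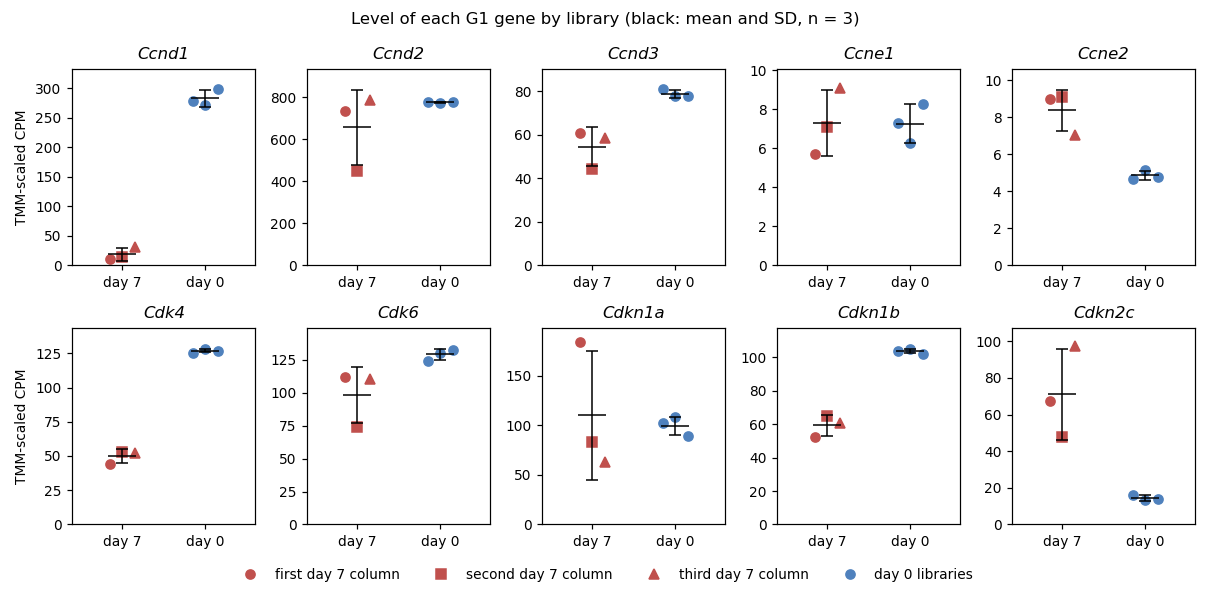
TMM-scaled CPM of each G1 gene in the 3 day 7 libraries (red, a symbol per column) and the 3 day 0 libraries (blue), each panel with its own axis from 0; black lines give the mean and SD of 3 libraries. Ccnd1, Ccnd3, Cdk4, Cdk6 and Cdkn1b lay below every day 0 library in all 3 day 7 libraries, Cdkn2c and Ccne2 lay above, and Cdkn1a was spread from 63.5 to 184 CPM at day 7.

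The D cyclins differed from each other. Ccnd1 encodes cyclin D1, the D cyclin classically induced by growth factors, and lies on chromosome 7 at 144929931 to 144939925 on the minus strand of GRCm38. It had 11.2, 13.7 and 31.2 CPM in the day 7 columns, against 278, 271 and 299 CPM at day 0. All day 7 values were far below the lowest day 0 value, and the third column held the highest of them. Ccnd1 fell 15.4-fold (log2 fold change -3.94 ± 0.38, SE; 95% interval -4.82 to -3.07; edgeR adjusted p = 8.6e-05), and the value was -4.51 without the third day 7 column.

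Ccnd2, on chromosome 6 at 127125162 to 127152193, encodes cyclin D2 and had the highest mean CPM per kilobase of exon of the 10 genes on both days. It had 733, 450 and 785 CPM in the day 7 columns, against 777, 773 and 779 CPM at day 0. The groups overlapped, and the second day 7 column alone lay well below the others. The log2 fold change was -0.24 ± 0.22 (95% interval -0.75 to 0.26, edgeR adjusted p = 0.37), so a fall of up to 0.75 on the log2 scale lies within the interval and a fall of the size seen for Ccnd1 does not. That second column also had the lowest summed adipocyte markers of the day 7 libraries, 3900 CPM against 6150 and 6760 CPM, and the highest fibroblast markers, 5500 CPM against 3520 and 4070 CPM. The part of these differences in the Ccnd2 level was not tested.

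Ccnd3 encodes cyclin D3, the D cyclin often found in differentiated tissues, and lies on chromosome 17 at 47505051 to 47599691. It had 60.6, 44.2 and 58.5 CPM in the day 7 columns, against 81, 78.0 and 77.7 CPM at day 0. The groups did not overlap, and Ccnd3 fell 1.45-fold (log2 fold change -0.53 ± 0.13, edgeR adjusted p = 0.0097). It shares 361 exonic bases with Bysl, a gene on the opposite strand that rose (log2 fold change 0.63, edgeR adjusted p = 0.0075). The use of strand in counting is not given in the sources used here, so reads from such overlaps cannot be assigned with certainty. The longest such overlap is that of Ccnd1 with LTO1, at 1100 exonic bases, whose level was not analysed here. Ccnd2, Cdk6 and Cdkn1a share 273 to 372 exonic bases with other annotated genes on the opposite strand, and Ccne1, Cdkn1b and Cdkn2c share none.

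The mixture of D cyclin transcripts was thus different at day 7. Levels between genes were compared as CPM per kilobase of annotated exon. Summed over the D cyclins, these were 87.2, 55.8 and 96.7 CPM per kb in the day 7 columns, against 151, 149 and 155 CPM per kb at day 0. Ccnd1 made up 2.73%, 5.23% and 6.86% of that sum in the day 7 columns, against 39.1%, 38.7% and 40.9% at day 0. Ccnd2 took 89.3%, 85.8% and 86.2% at day 7, against 54.7%, 55.3% and 53.4% at day 0. Ccnd2 was thus the main D cyclin transcript on both days, with the largest share in all 6 libraries. The share of Ccnd3 averaged 7.95% ± 1.06 at day 7 and 5.94% ± 0.21 at day 0 (SD, n = 3 per day), a difference of 2.0 percentage points with groups that did not overlap (exact permutation test, two-sided p = 0.1, the smallest that 3 against 3 libraries allow; 0.12 after Benjamini-Hochberg adjustment over 5 such ratios). Without division by length, the groups overlapped and the difference was 0.698 points (exact permutation p = 0.4).

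**Figure D2:**
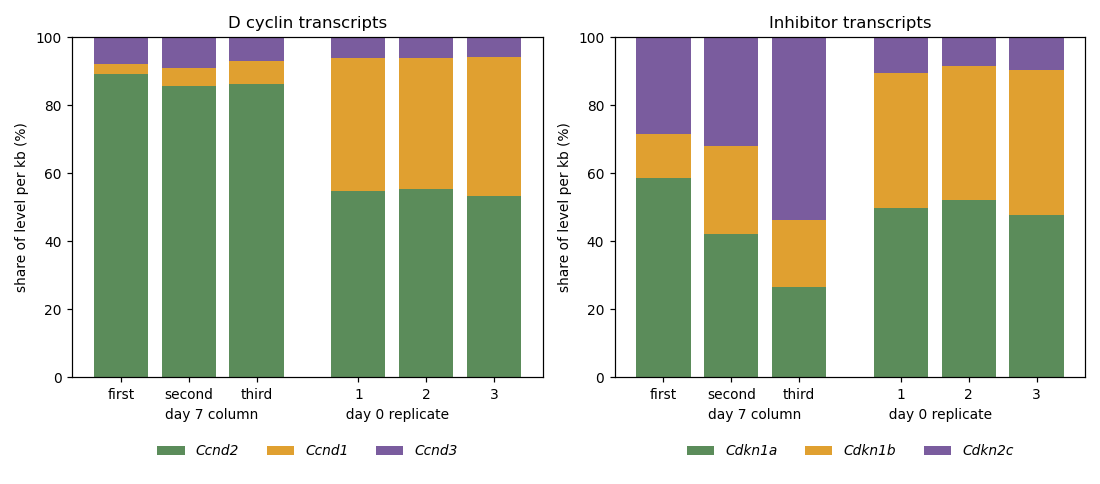
Share of each gene in the summed level per kilobase of the D cyclins (left) and of the inhibitors Cdkn1a, Cdkn1b and Cdkn2c (right). Stacked bars give percent for the 3 day 7 columns and then the 3 day 0 replicates. Ccnd1 (orange, left) took 2.73% to 6.86% of D cyclins at day 7 and 38.7% to 40.9% at day 0, and Cdkn2c (purple, right) took 28.4% to 53.8% of inhibitors at day 7 and 8.50% to 10.5% at day 0.

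The E cyclins had the lowest mean CPM per kilobase of the G1 genes on both days, and of the pair Ccne2 passed the test. Ccne2 encodes cyclin E2 and lies on chromosome 4 at 11191351 to 11204779. It had 8.96, 9.06 and 7.06 CPM in the day 7 columns, against 4.65, 5.16 and 4.75 CPM at day 0. All day 7 libraries were above all day 0 libraries, and Ccne2 rose 1.73-fold (log2 fold change 0.79 ± 0.16, edgeR adjusted p = 0.004). These levels rest on 52 to 158 counts per library, and with libraries scaled by total counts alone the call was lost (log2 fold change 0.55, edgeR adjusted p = 0.058). Ccne2 also shares 609 exonic bases with Ints8 on the opposite strand, which had 21.1 to 25.4 CPM at day 7 and 23.8 to 27.5 CPM at day 0 (edgeR adjusted p = 0.27).

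Ccne1, which encodes cyclin E1, lies on chromosome 7 at 38097984 to 38107534. Its level was 5.72, 7.12 and 9.10 CPM in the day 7 columns, against 7.28, 6.28 and 8.26 CPM at day 0. The groups overlapped, and the log2 fold change was -0.01 ± 0.21 (95% interval -0.50 to 0.48, edgeR adjusted p = 0.97), which leaves room for a change of up to about 0.5 on the log2 scale either way. Ccne2 made up 54.4%, 49.2% and 37.2% of E cyclin transcripts per kilobase in the day 7 columns, against 32.7%, 38.5% and 30.5% at day 0. The third day 7 column lay within the day 0 range, so the groups overlapped (exact permutation test, two-sided p = 0.2; 0.20 adjusted over the 5 ratios). The mean share was 46.9% ± 8.83 at day 7 and 33.9% ± 4.13 at day 0 (SD). This difference of 13.0 percentage points ran from 9.27 to 17.9 when single libraries were left out.

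Of the kinases that pair with D cyclins, Cdk4 fell and Cdk6 did not pass the test. Cdk4 lies on chromosome 10 at 127063534 to 127067920. It had 44.3, 53.1 and 52.3 CPM in the day 7 columns, against 125, 128 and 127 CPM at day 0. Both groups were tight and far apart, and Cdk4 fell 2.55-fold (log2 fold change -1.35 ± 0.11, edgeR adjusted p = 4e-05). Tspan31, on the opposite strand with 641 shared exonic bases, fell less (log2 fold change -0.35, edgeR adjusted p = 0.012). Cdk6, on chromosome 5 at 3341485 to 3531008, had 112, 74.1 and 110 CPM in the day 7 columns, against 124, 130 and 132 CPM at day 0. Every day 7 value was below the day 0 values, the second column again lowest, but the log2 fold change of -0.39 ± 0.17 missed the threshold (95% interval -0.77 to -0.01, edgeR adjusted p = 0.075). It passed without the first day 7 column (-0.50, adjusted p = 0.046) or without the third (-0.47, adjusted p = 0.04), so its call depends on which libraries enter.

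Cdk6 thereby held a larger part of the pair. It made up 36.9%, 24.5% and 32.7% of Cdk4 and Cdk6 transcripts per kilobase in the day 7 columns, against 18.7%, 19.2% and 19.4% at day 0. The groups did not overlap (31.4% ± 6.34 at day 7 and 19.1% ± 0.376 at day 0, SD, n = 3 per day; exact permutation p = 0.1; 0.12 adjusted over the 5 ratios). Summed per kilobase, both kinases came to 21.6 to 23.9 CPM per kb at day 7, against 47.4 to 48.7 CPM per kb at day 0.

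The promoter of Cdk4 is shown because it carries an unusual number of E boxes, the CACGTG letters bound by MYC and related factors. RefSeq promoters (GRCm38.p6; 250 bases before to 50 after the transcript start) were found for 7 of the 10 genes, 10 promoters in all. Ccnd1, Ccnd2 and Ccne2 had no entry. Capitals mark CACGTG in the Cdk4 sequence, on the plus strand at chr10:127063285-127063584. In the Cdkn2c sequence, on the minus strand at chr4:109666707-109667006, they mark TTCCCGC, a form of the E2F motif.
Cdk4: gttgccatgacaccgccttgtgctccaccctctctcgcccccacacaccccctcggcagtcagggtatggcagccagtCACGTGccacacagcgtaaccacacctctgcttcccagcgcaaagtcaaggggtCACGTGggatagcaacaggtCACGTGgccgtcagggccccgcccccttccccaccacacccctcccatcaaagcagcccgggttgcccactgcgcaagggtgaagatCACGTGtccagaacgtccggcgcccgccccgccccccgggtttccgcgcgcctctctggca
Cdkn2c: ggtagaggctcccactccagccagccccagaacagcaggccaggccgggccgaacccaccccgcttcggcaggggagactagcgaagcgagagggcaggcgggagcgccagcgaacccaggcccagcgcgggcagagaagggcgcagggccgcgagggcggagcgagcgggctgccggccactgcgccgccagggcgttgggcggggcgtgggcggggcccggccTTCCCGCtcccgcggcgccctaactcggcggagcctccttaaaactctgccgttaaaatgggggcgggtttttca
The E boxes of Cdk4 start at -172, -118, -98 and -11 relative to the start site. CACGTG, which reads the same on both strands, was found in 3 of the 10 promoters, those of Cdk4 and Cdk6 and 1 of Cdkn2c, and in 7.15% of all 32851 promoters in the table. At least 4 copies, as in Cdk4, were found in 8 promoters of the 32851. The E2F letters were searched in the forms TTCGCGC, then as TTGGCGC, and lastly as TTCCCGC, on either strand, and were found in 1 of the 10 promoters, that of Cdkn2c, and in 8.07% of all promoters. The AP-1 letters TGACTCA, with their reverse complement TGAGTCA, were in none of the 10 and in 5.20% of all promoters. Myc itself, the gene of the E box binding factor MYC, had 54.1, 25.6 and 37.1 CPM in the day 7 columns, against 20.3, 20.1 and 22.6 CPM at day 0. Myc rose (log2 fold change 0.90 ± 0.25, edgeR adjusted p = 0.015), although its call was lost without day 0 replicate 1 or without day 0 replicate 2 (adjusted p = 0.056 in each case). A link between the Myc and Cdk4 levels was not tested.

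The inhibitors went in different directions. Cdkn2c, on chromosome 4 at 109660876 to 109667189, encodes the INK4 inhibitor p18, known to accumulate in differentiating muscle and fat cells. It had 67.7, 47.7 and 97.5 CPM in the day 7 columns, against 16.2, 13.3 and 13.8 CPM at day 0. Every day 7 library was above every day 0 library, although the day 7 libraries differed from each other. Cdkn2c rose 4.91-fold (log2 fold change 2.30 ± 0.25, edgeR adjusted p = 0.00017), and its log2 fold change ran from 2.01 to 2.51 when single libraries were left out.

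Cdkn1b, which encodes p27 and lies on chromosome 6 at 134920401 to 134925513, fell. It had 52.5, 65.1 and 60.6 CPM in the day 7 columns, against 104, 105 and 102 CPM at day 0. The groups did not overlap, and the change was 1.74-fold (log2 fold change -0.80 ± 0.11, edgeR adjusted p = 0.00052). The p27 protein is known to be controlled largely by degradation, which RNA counts do not measure.

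Cdkn1a, on chromosome 17 at 29090976 to 29100727, encodes p21, a target of p53. Its values were 184, 82.8 and 63.5 CPM in the day 7 columns, against 102, 108 and 89.8 CPM at day 0. The first day 7 column stood above all day 0 libraries and the other columns below them. The pooled log2 fold change was 0.15 ± 0.36 (95% interval -0.68 to 0.98, edgeR adjusted p = 0.73). Without the first day 7 column the direction turned and the call was made (log2 fold change -0.45, edgeR adjusted p = 0.04), so a single library decides its sign. The value was also slightly negative, at -0.03, with total-count scaling and with limma-voom. Klf6, a zinc finger factor known to activate Cdkn1a and a member of a list described below, had a similar unevenness, with 185, 55.1 and 62.6 CPM in the day 7 columns, against 110, 110 and 118 CPM at day 0 (log2 fold change -0.15, edgeR adjusted p = 0.78, and -0.94 with adjusted p = 0.0005 without the first day 7 column). Klf6 was singled out from that list after its values were seen. A link between the Klf6 and Cdkn1a levels was not tested.

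Within these 3 inhibitors, transcripts moved towards Cdkn2c. It made up 28.4%, 32.1% and 53.8% of the summed level per kilobase in the day 7 columns, against 10.5%, 8.50% and 9.69% at day 0 (38.1% ± 13.7 at day 7 and 9.57% ± 1.01 at day 0, SD, n = 3 per day; exact permutation p = 0.1; 0.12 adjusted over the 5 ratios). Cdkn1b took 13.0% to 25.8% at day 7, against 39.5% to 42.5% at day 0. The summed level of the 3 inhibitors was 88.7, 55.4 and 67.5 CPM per kb in the day 7 columns, against 57.4, 58.2 and 52.9 CPM per kb at day 0, and the groups overlapped. Set against the summed D cyclins, these 3 inhibitors had a log2 ratio of 0.02, -0.01 and -0.52 in the day 7 columns, against -1.39, -1.35 and -1.55 at day 0. The ratio was higher by 1.26 on the log2 scale at day 7 with no overlap (-0.169 ± 0.304 at day 7 and -1.43 ± 0.106 at day 0, SD, n = 3 per day; exact permutation p = 0.1; 0.12 adjusted). Without division by length the difference was 0.801, from ratios of -1.40, -1.38 and -1.98 in the day 7 columns, against -2.36, -2.32 and -2.49 at day 0, so its size and the closeness of the day 7 ratio to 0 depend on that step. The D cyclin sum did not overlap between days and the sum of these 3 inhibitors did. Cdkn2a and Cdkn2b, described below, are not in that sum, and both fell. Cdkn2a averaged 64.6 CPM at day 7 and 111 CPM at day 0, and Cdkn2b 20.1 CPM at day 7 and 63.4 CPM at day 0. The inhibitor sum and the ratio thus depend on leaving them out, and the ratio with them was not analysed.

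**Figure D3:**
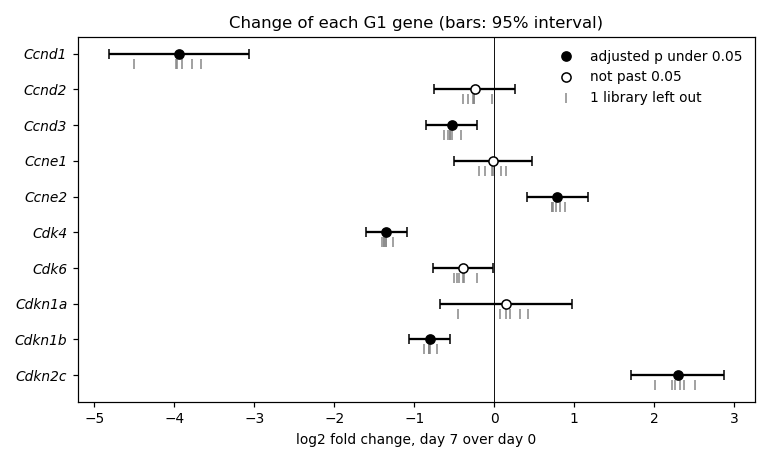
log2 fold change of day 7 over day 0 for each G1 gene (points) with its 95% interval (bars) from the edgeR fit; filled points passed an adjusted p of 0.05 and grey ticks give the value with 1 library left out. Ccnd1 at -3.94 and Cdkn2c at 2.30 lie farthest from 0, and the Cdkn1a ticks lie on both sides of 0.

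The order of the levels also differed between the days. At day 7, in CPM per kb, Ccnd2 (69.7 ± 19.1, SD, n = 3) was followed by Cdkn1a (31.0 ± 18.3), Cdkn2c (26.4 ± 9.32), Cdk4 (15.4 ± 1.5), Cdkn1b (13.1 ± 1.40), Cdk6 (7.04 ± 1.51), Ccnd3 (6.20 ± 1.02), Ccnd1 (3.98 ± 2.31), Ccne1 (2.75 ± 0.637) and Ccne2 (2.39 ± 0.322). Of these neighbours, only Cdkn2c and Cdk4, and Cdkn1b and Cdk6, were free of overlap between libraries with this length, so most of this order lies within the spread. At day 0 the order was Ccnd2 (82.5 ± 0.286 CPM per kb, SD, n = 3), Ccnd1 (60.0 ± 3.12), Cdk4 (39.1 ± 0.42), Cdkn1a (28.1 ± 2.55), Cdkn1b (22.7 ± 0.268), Cdk6 (9.22 ± 0.311), Ccnd3 (9.0 ± 0.208), Cdkn2c (5.37 ± 0.586), Ccne1 (2.73 ± 0.372) and Ccne2 (1.39 ± 0.0768). There only Cdk6 and Ccnd3 overlapped. Both orders rest on the length of all annotated exons. The longest transcript is shorter by unlike parts, with 3858 in place of 8775 bases for Ccnd3. For Cdk6 it is 11525 in place of 13989 bases, and for Cdk4 2053 in place of 3249 bases. The places of such genes and their overlaps on both days thus depend on the length used. Ccnd1 stood at place 8 at day 7 and at place 2 at day 0, and Cdkn2c at place 3 at day 7 and at place 8 at day 0.

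**Figure D4:**
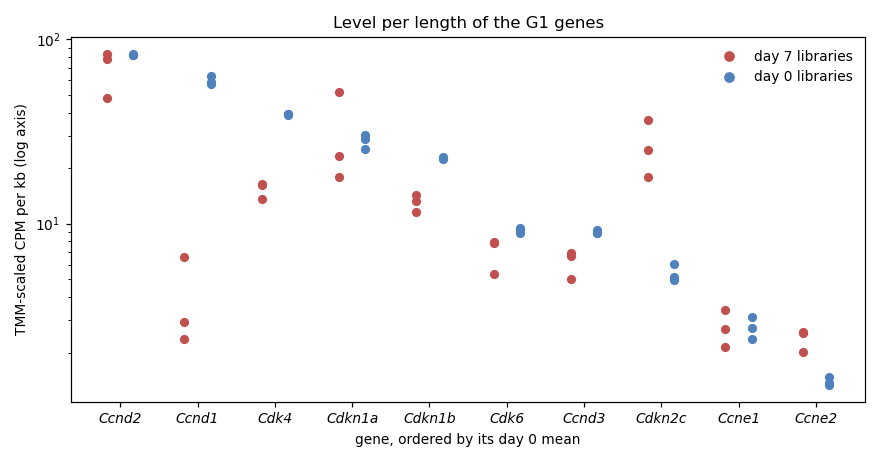
TMM-scaled CPM per kilobase of annotated exon (log axis) for each library, day 7 in red and day 0 in blue, with genes ordered by their day 0 mean. Ccnd1 lay at 2.38 to 6.63 CPM per kb at day 7 and at 57.5 to 63.5 CPM per kb at day 0, while Cdkn2c lay at 17.8 to 36.3 CPM per kb at day 7 and at 4.95 to 6.04 CPM per kb at day 0.

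No other tested inhibitor of these families was called as rising. Cdkn2b, which encodes p15, fell 3.17-fold (20.1 ± 3.33 CPM at day 7 and 63.4 ± 2.11 CPM at day 0, SD, n = 3 per day; edgeR adjusted p = 3.8e-05). Cdkn2a, the shared gene of p16 and ARF, fell 1.72-fold (64.6 ± 13.8 CPM at day 7 and 111 ± 6.58 CPM at day 0; edgeR adjusted p = 0.004). Cdkn2d, which encodes p19, had 3.53 to 5.33 CPM at day 7 and 3.54 to 4.47 CPM at day 0 and did not pass (edgeR adjusted p = 0.46), and Cdkn1c had too few counts to be tested. Among the 4 INK4 genes, Cdkn2c was thus the gene called as rising.

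Of CDK2 and 4 activators of CDKs, 2 fell and none rose, against 29.2% and 30.8% of all tested genes. Without the third day 7 column 1 rose. Those that fell encode parts of the CDK-activating kinase: Cdk7 by 1.69-fold (edgeR adjusted p = 0.00029) and Mnat1, its assembly factor, by 1.5-fold (edgeR adjusted p = 0.0038). Ccnh, the cyclin of that complex, had 13.8 to 15.1 CPM at day 7 and 14.1 to 15.1 CPM at day 0 (edgeR adjusted p = 0.96). Cdk2, the partner of E cyclins, had 8.28 to 13.2 CPM at day 7 and 7.67 to 9.38 CPM at day 0 (edgeR adjusted p = 0.092). Cdc25a, the phosphatase that activates it, had 6.72 to 10.1 CPM at day 7 and 7.34 to 8.51 CPM at day 0 (edgeR adjusted p = 0.87).

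In the list of genes that degrade or protect G1 cyclins and inhibitors, 7 of 15 rose and 4 fell, with a median log2 fold change of 0.33. Of all tested genes 30.8% rose and 29.2% fell, with a median of 0.02. Skp2, the ubiquitin ligase subunit that targets p27, fell 4.57-fold (3.26 ± 1.15 CPM at day 7 and 14.8 ± 1.99 CPM at day 0; edgeR adjusted p = 0.00019), and Cks1b, its cofactor, fell 1.69-fold. Usp2, a deubiquitinase of cyclin D1, rose 6.0-fold (12.9 ± 1.6 CPM at day 7 and 2.14 ± 0.369 CPM at day 0; edgeR adjusted p = 2.8e-05), and Fbxo31, a ligase subunit for cyclin D1, rose 4.90-fold to 4.86 ± 0.985 CPM at day 7, against 1.0 ± 0.152 CPM at day 0. With libraries scaled by total counts alone, 3 of these 15 rose, and without day 0 replicate 1 or 2 it was 4.

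Genes of later cycle phases fell in most cases, against 29.2% of all tested genes. All 15 proliferation markers fell (median log2 fold change -2.32), with summed levels of 88.4, 139 and 104 CPM in the day 7 columns, against 387, 363 and 401 CPM at day 0. Mcm5, of the replicative helicase, fell 8.89-fold, or -3.84 in place of -3.15 on the log2 scale without the second day 7 column. Rrm2, a subunit of ribonucleotide reductase, fell 5.85-fold. Of 10 genes of S, G2 and M phase control (cyclins, kinases, the phosphatases Cdc25b and Cdc25c and the CDK-binding subunit Cks2), 8 fell (median log2 fold change -1.66), led by Ccna2, cyclin A2, at 7.30-fold (3.07 ± 2.17 CPM at day 7 and 22.9 ± 2.13 CPM at day 0; edgeR adjusted p = 0.00054). Pkmyt1, an inhibitory kinase of CDK1, rose 3.71-fold, and Wee1, of the same function, did not pass (edgeR adjusted p = 0.56).

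Downstream of the G1 kinases, 3 of 12 tested pocket protein and E2F genes rose and 5 fell, against 30.8% and 29.2% of all tested genes. Rb1, which encodes the retinoblastoma protein, rose 4.71-fold (54.0 ± 5.31 CPM at day 7 and 11.5 ± 1.76 CPM at day 0; edgeR adjusted p = 1.5e-05), and Rbl2 and Tfdp2 rose too. E2f1, E2f4, E2f7 and Tfdp1 fell, and E2f8, a repressive E2F, fell 8.98-fold, with a log2 fold change of -3.17, or -3.99 when the second day 7 column was left out. The count that fell was 3 without any single day 0 replicate or without the third day 7 column.

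**Figure D5:**
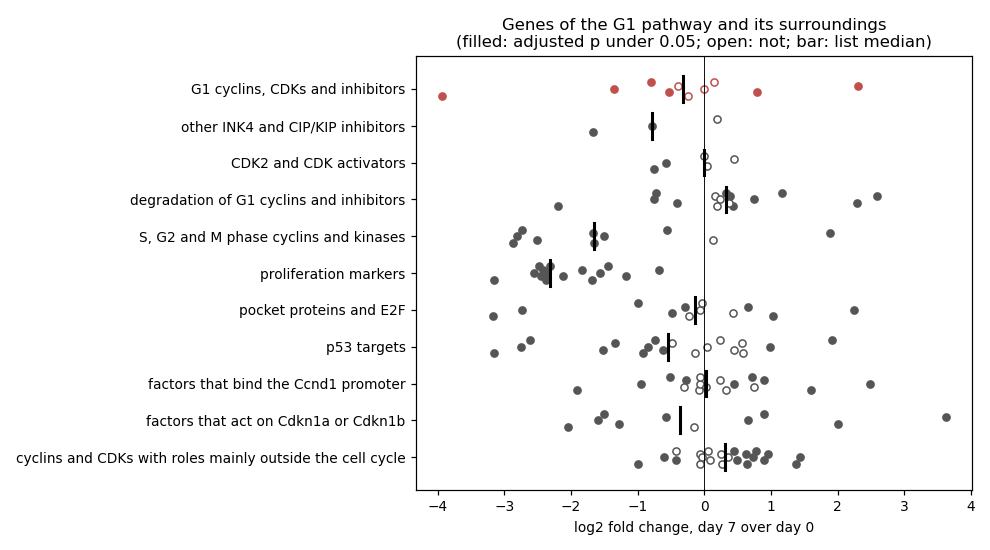
log2 fold change of day 7 over day 0 for each tested gene of the G1 group (red) and of 10 lists around it (grey); filled points passed an adjusted p of 0.05, open points did not, and black bars are list medians. Proliferation markers all lie left of 0 with a median of -2.32, while the G1 genes lie on both sides with a median of -0.32.

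Of 18 tested p53 targets 2 rose and 9 fell (median log2 fold change -0.55), against 30.8% and 29.2% of all tested genes. Summed over the 20 listed targets, levels were 4880, 4700 and 3610 CPM in the day 7 columns, against 3540, 3570 and 3750 CPM at day 0. These groups overlapped. Such a sum follows the most abundant targets, so it need not go with the count of genes that rose or fell. The gene of p53 itself (Trp53) fell (log2 fold change -1.6, edgeR adjusted p = 3.6e-05), and its part in the levels of these targets was not tested. Fas, a death receptor, fell 8.85-fold, or -4.13 in place of -3.15 on the log2 scale without the third day 7 column, and Eda2r, another receptor of that family, fell 6.71-fold. Those that rose were Btg2, an antiproliferative gene, at 3.79-fold (log2 fold change 1.92, and 1.32 without the third day 7 column), and Rrm2b, a ribonucleotide reductase subunit, at 1.97-fold. Without the second day 7 column 4 of the list rose.

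Of 17 tested factors known to bind the Ccnd1 promoter, 5 rose and 4 fell, shares close to the 30.8% and 29.2% of all tested genes. With libraries scaled by total counts alone it was 2 and 3, and without any single day 0 replicate 3 and 3. Ets1, an ETS factor, fell 3.77-fold (13.6 ± 0.802 CPM at day 7 and 51.3 ± 0.612 CPM at day 0; edgeR adjusted p = 7.8e-06), and Fosl2, an AP-1 subunit, fell 1.93-fold. Ctnnb1 and Tcf7l1, of the Wnt pathway, also fell, and Jun, Stat5a and Stat5b rose. Fos, another AP-1 subunit, had 86.8, 15.2 and 128 CPM in the day 7 columns, against 13.5, 14.9 and 12.5 CPM at day 0 (log2 fold change 2.49 ± 0.64, edgeR adjusted p = 0.011). Egr1, an immediate early zinc finger factor, also varied at day 7, with 242, 77.4 and 364 CPM in the day 7 columns, against 75.9, 80.1 and 69.6 CPM at day 0. Its call (edgeR adjusted p = 0.019) was lost when any single day 0 replicate was left out (adjusted p = 0.057 to 0.072).

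Among 10 factors that act on Cdkn1a or Cdkn1b, 4 rose and 5 fell, against 30.8% and 29.2% of all tested genes. Cebpa, an adipogenic factor whose protein is known to stabilise p21, rose 12.3-fold, and Klf4, an activator of Cdkn1a, fell 4.14-fold (9.60 ± 5.15 CPM at day 7 and 40.0 ± 2.7 CPM at day 0; edgeR adjusted p = 0.0021). With libraries scaled by total counts alone, 2 rose and 5 fell. In 22 cyclins and CDKs with roles mainly outside the cell cycle, 10 rose and 3 fell (median log2 fold change 0.32), against the same shares. With total-count scaling 4 rose and 3 fell. Cdk18, a PCTAIRE kinase, rose 2.71-fold, and Ccnl2, a cyclin linked to splicing, rose 2.61-fold. Cdk14, another relative, fell 1.98-fold, and Cdk19, a kinase of the Mediator complex, fell 1.51-fold.

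The genes with the most similar pattern to Ccnd1 and to Cdkn2c were sought among the 7477 genes whose CPM averaged 10 or more, by the root mean square difference between log2(CPM + 1) profiles centred on their own mean over the 6 libraries. For Ccnd1 they were Ifitm3 at 0.0843, Sorbs2 at 0.122 and Fgf7 at 0.123. Sorbs2 had 0.17, 0.204 and 2.17 CPM in the day 7 columns, against 22.7, 25.8 and 29.9 CPM at day 0. Its 39.6-fold fall was larger than that of Ccnd1 and rests on 3, 2 and 16 counts at day 7. The log2 fold change of Sorbs2 was -5.31, and -7.09 without the third day 7 column. Ifitm3, an interferon-induced membrane protein, had 22.8, 23.5 and 61.1 CPM in the day 7 columns, against 484, 489 and 514 CPM at day 0. Fgf7, a fibroblast growth factor, had 6.12, 9.77 and 21.6 CPM in the day 7 columns, against 167, 168 and 208 CPM at day 0. Like Ccnd1, Ifitm3, Sorbs2 and Fgf7 had their highest day 7 value in the third column. For Cdkn2c they were Sbsn at 0.133, Por at 0.158 and Abca1 at 0.161. Por, the cytochrome P450 reductase, had 206, 183 and 323 CPM in the day 7 columns, against 49.9, 46.1 and 57.7 CPM at day 0. Abca1, a cholesterol exporter, had 449, 357 and 549 CPM in the day 7 columns, against 88.5, 84.1 and 86.2 CPM at day 0. Sbsn, Por and Abca1 were all highest in the third day 7 column and lowest in the second, as Cdkn2c was. The genes were picked by profiles over these same 6 libraries, so an order shared with Ccnd1 or Cdkn2c largely follows from that choice.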

How the data were processed

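The authors deposited estimated counts for each gene in each library, whose totals differ, and the unit was read from the values, which are mostly whole with the rest at up to 3 decimals. The submitters' processing notes name STAR 2.7.10a, Salmon 1.9.0, Trim Galore 0.6.7 and genome build GRCm38. For the role of each tool, the annotation and the use of strand, the answer is not given in the sources used here. A side block of 10 value columns was not used. Counts of the 10 genes were whole within 0.01 in all libraries. Counts were rounded, filtered with filterByExpr (10 counts in enough libraries, 15 in total), scaled by TMM and tested with edgeR 4.0.16 (R 4.3.3; quasi-likelihood, group as the only factor, Benjamini-Hochberg over 12354 genes, threshold 0.05). The standard error is the log2 fold change over the square root of F. Exon lengths and positions came from GENCODE M21 (GRCm38), and promoters from RefSeq (GRCm38.p6). Ratios were tested by exact permutation over libraries (scipy 1.17.1).

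Counts were compared between day 7 and day 0, with 3 libraries each. Depth ran from 7655821 to 16987068 counts, so genes such as Ccne1 and Ccne2 rest on few counts. The members and lists were chosen with earlier results of these data known; 168 of 169 list entries matched a row. Apart from the 10 genes, the text names for each list the gene that rose most and the one that fell most (2 each for lists of 15 or more), members that spell out counts of 5 or fewer, and the 3 genes nearest in pattern to the member that rose most and to the one that fell most. Bysl, Ints8 and Tspan31 were named for their overlap, and Ptprc, Cd68, Pecam1, Cdc25b, Cdc25c, Cks2, Klf6, Myc and Trp53 after their values were seen. The fit was tested on simulated data with known changes. It recovered 77 of 100 changes of 2-fold and 100 of 100 changes of 4-fold, with 9 false calls. Changes of 2-fold can thus be missed. Alternatives tried were scaling by total counts, upper quartile or RLE, other filters, DESeq2 1.42.0, limma-voom (limma 3.58.1), removal of the 10 most abundant rows, other lengths and leaving out each library.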

Additional observations from a re-analysis of the deposited data

How the results depend on the processing

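No paired analysis was possible because the day 7 columns all carry replicate number 1, so a replicate block could not be fitted. The calls of Ccnd1, Ccnd3, Cdk4, Cdkn1b and Cdkn2c held under all 14 alternatives. With total-count scaling the Ccne2 log2 fold change was 0.55 (edgeR adjusted p = 0.058), 2355 genes were called higher at day 7, against 3802, with 36.9% of calls higher against 51.3%, while log2 fold changes over the 12354 genes had a median of -0.21 in place of 0.02. Cdk6 passed with upper-quartile scaling (-0.45, adjusted p = 0.04). Without division by length, the Ccnd3 share of D cyclins differed by 0.698 points and the log2 ratio of inhibitors to D cyclins by 0.801, in both cases still higher at day 7. Ccne1 and Ccne2 did not reach 10 CPM in 3 libraries and had no value under that filter. With single libraries left out, log2 fold changes ran from -0.45 to 0.43 for Cdkn1a, from -0.50 to -0.22 for Cdk6, from -0.19 to 0.15 for Ccne1, from -0.39 to -0.03 for Ccnd2 and from 0.73 to 0.89 for Ccne2. The calls over all genes ran from 6125 to 8229, and those of the 10 G1 genes from 6 to 8. With 3 libraries a day, exact tests of the ratios cannot pass below 0.1, so they say nothing of stability. Counting depth limits Ccne1 and Ccne2 most, at 52 to 158 counts per library.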
